A study of Mus musculus with 16 samples.

Results

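The 10 genes described here, Peg10, Sgce, Mest, Peg3, Usp29, Snrpn, Ndn, Peg12, Plagl1 and Impact, are imprinted mouse genes expressed mainly from the paternal allele, and none of them lies in the Dlk1-Dio3 region. They were chosen by name, and their rows are 10 of the 22552 genes in the deposited expression table. The level of each gene was examined in 16 mouse pluripotent stem cell lines with 1 RNA-seq library per line. The AN lines are nuclear transfer embryonic stem cells (ntESCs) and the AI lines are induced pluripotent stem cells (iPSCs).

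All 16 lines were derived from adipocyte progenitor cells (APCs) of mice made from an earlier iPSC line with doxycycline-inducible reprogramming factors. That line came from embryos of a cross between 129S2/Sv females and mice carrying Rosa26-M2rtTA, the transactivator that doxycycline switches on, and the labels give the strain of every line as 129-M2rtTA. The lines are therefore syngeneic and share the same transgene insertions, the AN lines included. AN lines came from APC nuclei placed in enucleated oocytes, and AI lines came from APCs whose factors were switched on again with doxycycline. Each line is 1 clone. F (fully reprogrammed) and P (partially reprogrammed) follow the tetraploid complementation assay of the study, in which a fully reprogrammed line can form a whole pup in a tetraploid host embryo. The sample labels give only the line name and the AN or AI origin, and the F or P class was matched by line name. The fully reprogrammed AN lines were AN1, AN9, AN15 and AN20 (AN F, n = 4), and the partially reprogrammed ones were AN2, AN3, AN5, AN6 and AN7 (AN P, n = 5). Among the iPSCs, AI3, AI7, AI10 and GS32 were fully (AI F, n = 4) and AI9, GS4 and GS9 partially reprogrammed (AI P, n = 3). Passage was between 5 and 7 in the AN lines and 7 in the newly derived AI lines, against 17 in GS4, 6 in GS9 and 13 in GS32, which had been identified earlier. The sample titles of GS9 and GS32 conflict with their source entries, which both give GS4.

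An imprinted gene keeps a methylation mark from sperm or oocyte at an imprinting control region, so that 1 parental allele stays silent. At many paternally expressed genes the mark is laid down in the oocyte over the promoter, and the unmethylated paternal copy is transcribed. The mark has to survive reprogramming, and imprinted genes are among the genes most often examined in pluripotent stem cell lines. The table does not separate the alleles, so a level here is the sum of both copies.

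Values are FPKM, that is fragments scaled to transcript length and to the number of mapped reads, which allow levels of different genes to be set side by side. Relative sequencing depth, read from the steps between low values, was between 0.961 and 1.26 times that of AN1. Pairs of lines correlated at r between 0.929 and 0.978 across genes. The pluripotent markers were high in all lines, with a summed level over 7 genes (such as Pou5f1 and Nanog) between 1036 and 2082 FPKM. The fibroblast markers, which feeder cells also express, were detected in all lines and summed to between 150.9 and 921.0 FPKM over 12 genes. AN6 stood apart in its group, with the lowest pluripotent marker level. Its 5 trophoblast markers summed to 30.0 FPKM, against 1.95 to 15.7 FPKM in the other lines. Most of the AN6 sum was Krt7, at 23.1 FPKM. Cdx2 was highest in AI10, and Elf5 and Plac1 were at most 0.079 and 0.453 FPKM in any line. The mean log2(FPKM + 1) of the 5 markers, in which Krt7 weighs less, was also highest in AN6. It was 1.84 in AN6 and 1.39 in AI10, the highest line outside AN P. Whether each of the 5 markers was raised in AN6 was not tested. In bulk RNA a change in the number of cells of a type and a change in RNA per cell cannot be told apart.

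The 10 genes covered a wide range of levels. Impact was the most abundant with a mean of 92.9 FPKM over 16 lines, followed by Mest at 58.3 FPKM, Peg10 at 53.8 FPKM and Peg3 at 36.7 FPKM. Ndn (18.3 FPKM), Sgce (10.2 FPKM), Plagl1 (5.46 FPKM) and Peg12 (3.08 FPKM) were lower. Snrpn and Usp29 were listed at only 0.236 and 0.197 FPKM. Impact exceeded Mest in 16 of 16 lines and Peg3 exceeded Ndn in 16 of 16. Mest exceeded Peg10 in 11 lines and Snrpn exceeded Usp29 in 8, so the order within these 2 pairs was within the spread of the lines. Of the 10 genes, 8 passed the filter of a mean of 0.5 FPKM, and Usp29 and Snrpn did not.

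**Figure D1:**
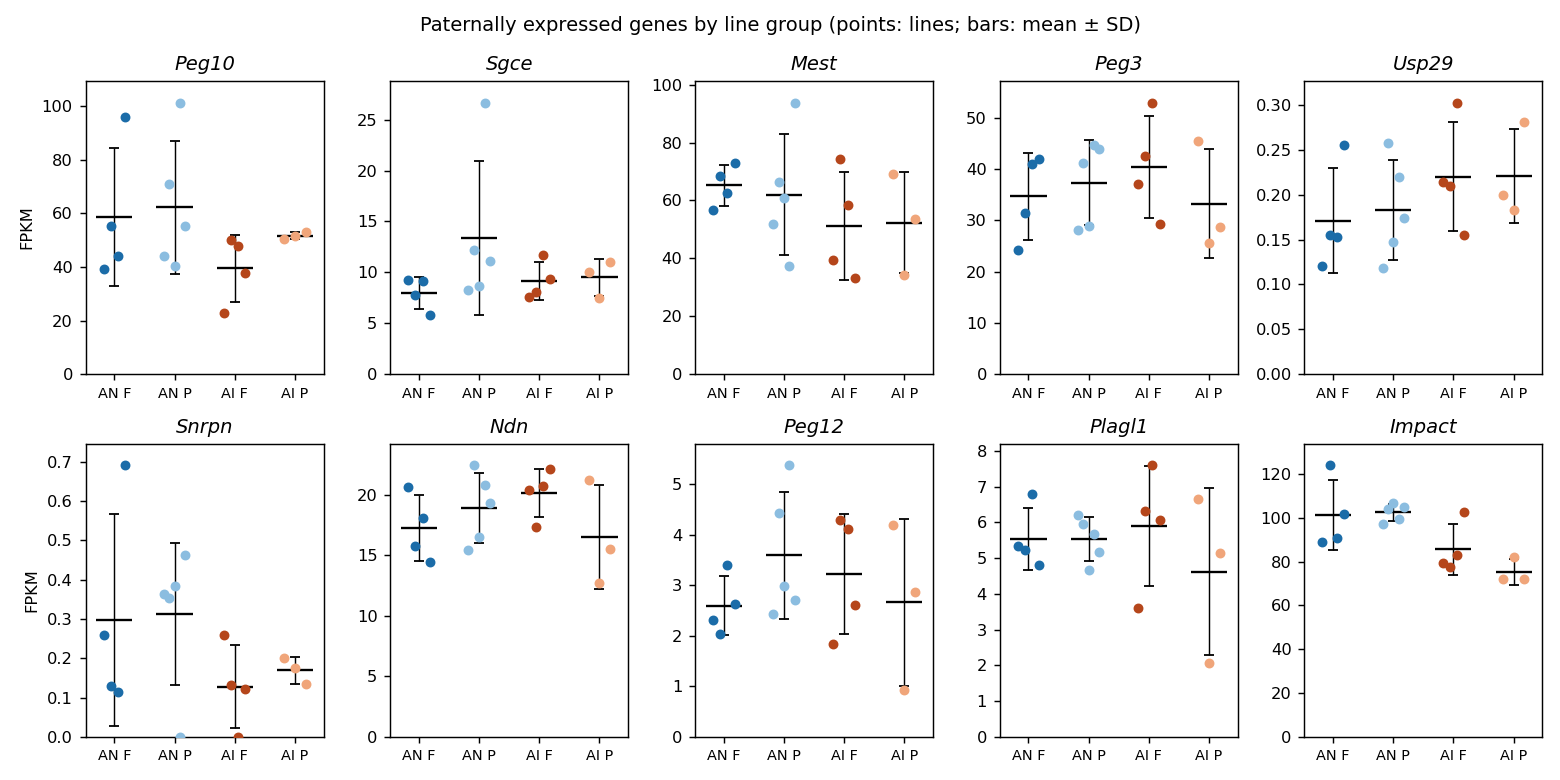
Level of each of the 10 genes in FPKM (linear axes from 0, a scale of its own in each panel) by group of lines. Points are lines and bars the mean and SD of 4, 5, 4 and 3 lines from left to right. The AN lines of Impact lie between 89.1 and 123.9 FPKM with 6 of 7 AI lines below them, and for most other genes the 4 groups overlap.

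The first question was whether fully and partially reprogrammed lines differ in these genes. None of the 8 tested genes passed an adjusted p of 0.05 (limma on log2(FPKM + 1), Benjamini-Hochberg over 13185 genes) in AN F against AN P or in AI F against AI P. No gene of the whole table did so either (0% called in each), while 792 genes (6.01%) in AN and 1025 genes (7.77%) in AI had an unadjusted p under 0.05, none of them one of the 10. In AN, 7 of the 8 genes were lower in AN F on average, with a median log2 difference of -0.10 against -0.01 over all tested genes. In AI, 5 of 8 were higher in AI F, with a median of 0.22 against -0.04. An interaction term compared the F against P differences of AI with those of AN. It called no gene (0%) and gave 2194 genes (16.6%) an unadjusted p under 0.05. Again none of the 8 was among them, and the smallest interaction p of the 8 was that of Ndn (unadjusted p = 0.0774, adjusted p = 0.334, limma).

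**Figure D2:**
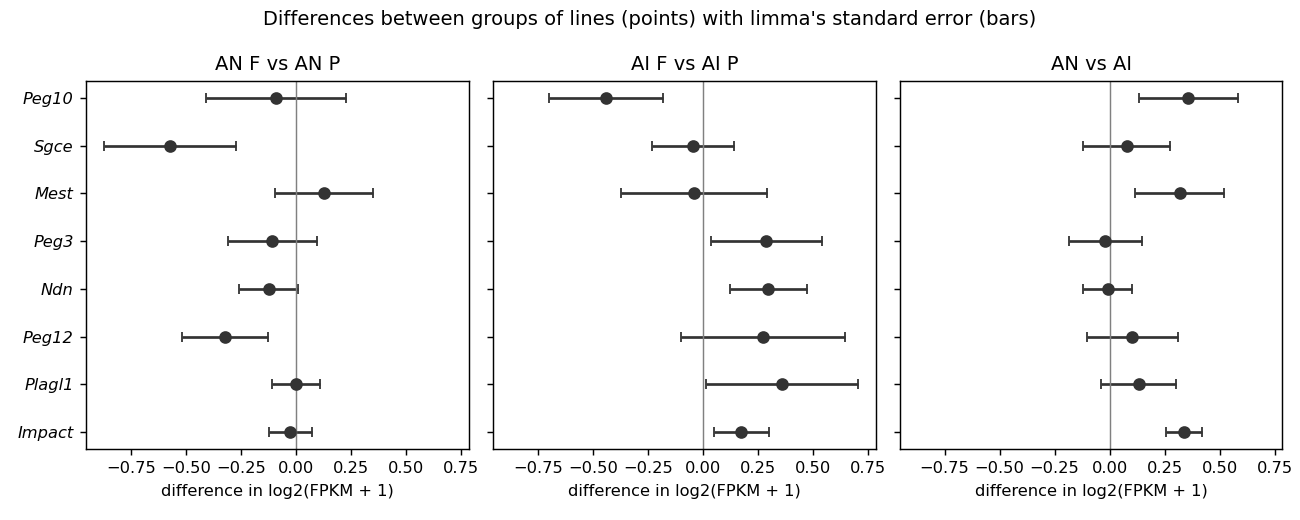
Difference in log2(FPKM + 1) of 8 genes for AN F minus AN P, AI F minus AI P and AN minus AI, with points for the fitted difference and bars for limma's standard error. Only for Impact in AN against AI (0.34 ± 0.080) does the difference exceed 2 standard errors.

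Peg10 and Sgce lie head to head on chromosome 6. Peg10, a gene derived from a retrotransposon and needed for placenta formation, occupies chr6:4697306-4710514 (mm9, plus strand, 3 exon blocks), and Sgce, which encodes the membrane protein epsilon-sarcoglycan, occupies chr6:4624350-4697204 (mm9, minus strand, 14 exon blocks). Their annotated starts are 102 bases apart. No promoter window was at hand for either gene.

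Peg10 was at 39.3, 55.3, 44.2 and 96.0 FPKM in AN1, AN9, AN15 and AN20, and at 44.0, 71.0, 40.4, 101.4 and 55.4 FPKM in AN2, AN3, AN5, AN6 and AN7. In AI F it was at 22.7, 49.9, 47.7 and 37.7 FPKM in AI3, AI7, AI10 and GS32. In AI P it was at 50.6, 51.7 and 53.0 FPKM in AI9, GS4 and GS9. All 4 AI F lines thus lay below all 3 AI P lines, while AN F and AN P overlapped over almost their whole ranges, with AN20 and AN6 far above the others. Non-overlapping AI groups were found for 645 of 13185 genes (4.89%), and Peg10 was 1 of the 8 tested genes. The AI F mean was 39.5 ± 12.4 FPKM (SD, n = 4) and the AI P mean 51.7 ± 1.18 FPKM (SD, n = 3), a log2 difference of -0.44 (SE 0.26, adjusted p = 0.521, limma). The exact permutation test gave p = 0.0571, the smallest that 35 splits allow, so this design cannot reach 0.05. The gap between the groups was small, since AI7 at 49.9 FPKM and AI9 at 50.6 FPKM are neighbours. Without AI3, the lowest line, the log2 difference was -0.20. AN F and AN P had means of 58.7 ± 25.8 FPKM (SD, n = 4) and 62.4 ± 24.8 FPKM (SD, n = 5), with an exact permutation p of 0.762. Groups that do not overlap between AN F and AN P were found for 171 genes (1.3%), none of them one of the 10.

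Sgce was at 9.21, 7.74, 9.10 and 5.78 FPKM in AN1, AN9, AN15 and AN20. In AN P it was at 8.24, 12.2, 8.67, 26.7 and 11.1 FPKM in AN2, AN3, AN5, AN6 and AN7. AN6 was more than 2 times as high as any other line of the 16, and the remaining AN P lines overlapped with AN F. The AN F and AN P means were 7.96 ± 1.60 FPKM (SD, n = 4) and 13.4 ± 7.61 FPKM (SD, n = 5), which is the largest difference in AN of the 8 genes on the log2 scale (-0.57, SE 0.30, adjusted p = 0.636, limma, exact permutation p = 0.0952). Without AN6 it shrank to -0.31. The AI lines ranged from 7.43 FPKM in GS4 to 11.7 FPKM in AI10, with a log2 difference between AI F and AI P of -0.05 (SE 0.19).

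The levels of Peg10 and Sgce showed no correlation past the test, although their starts are adjacent. Over 16 lines Pearson's r was 0.41 (permutation p = 0.145, adjusted over 5 pairs p = 0.242) and Spearman's rho 0.26 (permutation p = 0.336, adjusted p = 0.337). Without AN6 and AI3, the lines farthest from the Peg10 median, r turned to -0.27, so the positive value rests on those lines. Within AN and within AI r was 0.41 in each. The FPKM ratio of Peg10 to Sgce was 16.6 in AN20 and between 2.98 and 7.15 in the other 15 lines. AN20 combined the second highest Peg10 level with the lowest Sgce level of all lines, and AN6 was highest for both genes.

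Mest, also on chromosome 6 (chr6:30673547-30698457, mm9, plus strand, 18 exon blocks), encodes a protein of the alpha/beta hydrolase fold. Its 3′ end overlaps an exon of Copg2 on the opposite strand, and the miRNA gene Mir335 lies in an intron, so reads in the overlap could be split if the counting ignored strand, which is not given in the sources used here. Mest was between 56.7 and 73.1 FPKM in AN F and between 37.2 (AN6) and 93.7 FPKM (AN7) in AN P. The AI F lines lay between 33.2 (GS32) and 74.3 FPKM (AI7) and the AI P lines between 34.1 (GS4) and 69.1 FPKM (AI9). The groups overlapped throughout. The AN F mean was 65.2 ± 7.15 FPKM (SD, n = 4) and the AN P mean 62.0 ± 20.9 FPKM (SD, n = 5). The AI F mean was 51.3 ± 18.7 FPKM (SD, n = 4) and the AI P mean 52.3 ± 17.6 FPKM (SD, n = 3). The log2 differences were 0.13 (SE 0.22) in AN and -0.04 (SE 0.33) in AI. Copg2, a coatomer subunit gene expressed from the maternal allele in some tissues, stayed between 14.4 and 19.8 FPKM over the 16 lines, a narrower range than that of Mest.

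Peg3 and Usp29 form a pair on chromosome 7. Peg3 encodes a large zinc finger protein (chr7:6656603-6683132, mm9, minus strand, 10 exon blocks), and Usp29 encodes a ubiquitin-specific protease. In the mm9 annotation Usp29 is a single exon at chr7:6913871-6916480 on the plus strand, with its start 230739 bases from that of Peg3. In RefSeq on GRCm38.p6, however, the starts are 164 bases apart on opposite strands and the promoter windows (250 bases before to 50 after each start) share 263 bases. Both windows are shown because they are nearly the same stretch of DNA read from either strand. Capitals mark each CpG, the dinucleotide that carries the imprinting mark. The Peg3 window (GRCm38.p6, chr7:6730370-6730669, minus strand) holds 13 CpGs and the Usp29 window (GRCm38.p6, chr7:6730333-6730632, plus strand) holds 17, against a median of 7 over 32851 promoter windows.
Peg3: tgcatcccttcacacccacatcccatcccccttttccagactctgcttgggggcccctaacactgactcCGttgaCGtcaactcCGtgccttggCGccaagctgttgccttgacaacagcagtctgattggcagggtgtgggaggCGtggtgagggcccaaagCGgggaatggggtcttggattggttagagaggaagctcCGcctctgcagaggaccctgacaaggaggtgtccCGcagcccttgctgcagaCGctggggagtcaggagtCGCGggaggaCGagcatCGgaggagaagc
Usp29: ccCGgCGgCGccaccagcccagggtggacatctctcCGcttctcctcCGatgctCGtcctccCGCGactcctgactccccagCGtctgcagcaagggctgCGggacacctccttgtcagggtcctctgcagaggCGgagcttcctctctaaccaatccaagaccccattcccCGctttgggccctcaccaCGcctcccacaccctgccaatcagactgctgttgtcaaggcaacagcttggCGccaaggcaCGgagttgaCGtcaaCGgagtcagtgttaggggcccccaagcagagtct

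Across the 16 lines the genes of this shared region had levels far apart. Peg3 was at 24.2, 31.5, 41.1 and 42.0 FPKM in AN1, AN9, AN15 and AN20, and at 28.0, 41.2, 28.9, 44.7 and 44.0 FPKM in AN2, AN3, AN5, AN6 and AN7. It was at 37.2, 42.6, 53.0 and 29.2 FPKM in AI3, AI7, AI10 and GS32, and at 45.5, 25.6 and 28.7 FPKM in AI9, GS4 and GS9. High and low lines were present in each of the 4 groups. The log2 differences were -0.11 (SE 0.20) in AN and 0.29 (SE 0.25) in AI, with exact permutation p-values of 0.635 and 0.400. Usp29 was between 0.118 (AN2) and 0.303 FPKM (AI10), and Peg3 was listed at 102.2 to 269.1 times the Usp29 level. The AN F mean of Usp29 was 0.171 ± 0.059 FPKM (SD, n = 4) and the AN P mean 0.184 ± 0.056 FPKM (SD, n = 5). The AI F mean was 0.220 ± 0.061 FPKM (SD, n = 4) and the AI P mean 0.221 ± 0.053 FPKM (SD, n = 3). No comparison of Usp29 passed the exact permutation test.

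Peg3 and Usp29 tended to be high in the same lines, with Pearson's r of 0.58 (permutation p = 0.0181, adjusted over 5 pairs p = 0.0481). Spearman's rho of 0.56 did not pass after adjustment (permutation p = 0.0279, adjusted p = 0.124). Every Usp29 value was under the filter level of 0.5 FPKM, where the unknown counting error weighs most. Without AN1 and GS4, r was 0.52, and it was 0.76 within AN and 0.44 within AI. Apeg3, the antisense transcript of Peg3, was examined after the values had been seen. Its level was 0.655 to 1.10 times that of Peg3, and the levels correlated at r of 0.85 (permutation p = 4e-05, adjusted over 4 added pairs p = 0.00016) and rho of 0.90 (permutation p = 6e-05, adjusted p = 0.00024). Without AN1 and GS4, r was 0.79, and it was 0.81 within AN and 0.96 within AI. Among 13184 genes Apeg3 ranked second in likeness to Peg3, after Fam20b (r = 0.88). The kit and counting are not stated to keep strand, so reads of Peg3 and Apeg3 cannot be told apart.

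Snrpn, Ndn and Peg12 lie in the Prader-Willi domain of chromosome 7. Snrpn encodes SmN, a core protein of the spliceosome. Its transcript is bicistronic and also encodes SNURF, and the RefSeq windows of Snrpn and Snurf at this start are identical. That window (GRCm38.p6, chr7:60005150-60005449, minus strand, 7 CpGs) is shown because the table lists both names for it. Capitals again mark CpGs.
Snrpn/Snurf: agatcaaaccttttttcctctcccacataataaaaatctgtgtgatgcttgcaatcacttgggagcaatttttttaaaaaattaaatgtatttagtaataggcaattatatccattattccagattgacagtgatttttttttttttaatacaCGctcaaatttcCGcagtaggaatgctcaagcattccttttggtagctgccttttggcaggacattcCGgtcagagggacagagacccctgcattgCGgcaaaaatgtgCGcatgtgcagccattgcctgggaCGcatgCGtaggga

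In the table Snrpn was at 0.113 to 0.691 FPKM in 14 lines and practically at 0 in AN6 (5.2e-06 FPKM) and AI10 (4.7e-06 FPKM). Snurf, in contrast, was at 129.9 to 275.5 FPKM in all 16 lines, with a mean of 179.7 FPKM, above every one of the 10 genes. The low Snrpn values thus stand beside a high level under the other name of the same transcript, and were not read as absence of Snrpn RNA. Snurf was at 160.6, 179.7, 154.9 and 136.0 FPKM in AN1, AN9, AN15 and AN20, and at 161.3, 192.6, 192.2, 239.1 and 260.9 FPKM in AN2, AN3, AN5, AN6 and AN7. Of the 5 AN P lines, 4 were above all AN F lines, and AN2 was inside their range. The log2 difference was -0.39 (SE 0.14, unadjusted p = 0.0224, adjusted p = 0.636, limma), with an exact permutation p of 0.0317. In AI the difference was -0.24 (SE 0.23), with AI P between 146.1 FPKM and the 275.5 FPKM of GS9. Snurf was examined in place of Snrpn only after the Snrpn values had been seen.

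Ndn encodes necdin, a MAGE family protein that restrains growth in neurons (chr7:69493163-69494814, mm9, plus strand, 1 exon), and Peg12 encodes a protein of the Frat family, which binds GSK3 (chr7:69606757-69609396, mm9, minus strand, 1 exon). Ndn was at 20.6, 15.8, 18.1 and 14.4 FPKM in AN1, AN9, AN15 and AN20, and at 15.4, 22.4, 16.5, 20.8 and 19.4 FPKM in AN2, AN3, AN5, AN6 and AN7. It was at 20.4, 17.4, 20.7 and 22.1 FPKM in AI3, AI7, AI10 and GS32, and at 21.2, 12.7 and 15.5 FPKM in AI9, GS4 and GS9. The highest level was 1.76 times the lowest, the 4 groups overlapped, and GS4 was lowest. Its log2 differences were -0.13 (SE 0.13) in AN and 0.30 (SE 0.18) in AI, with exact permutation p-values of 0.413 and 0.229.

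Peg12 was between 2.03 and 3.40 FPKM in AN F and between 2.44 and 5.38 FPKM in AN P. The AI F lines lay between 1.85 and 4.30 FPKM and the AI P lines between 0.920 (GS4) and 4.20 FPKM (AI9). Its log2 differences were -0.32 (SE 0.20) in AN, which became -0.20 without AN6, and 0.27 (SE 0.37) in AI, which turned to -0.13 without GS4. Ndn and Peg12 correlated at r of 0.59 (permutation p = 0.0192, adjusted over 5 pairs p = 0.0481) and rho of 0.50 (permutation p = 0.0497, adjusted p = 0.124). Without AN20 and GS4, r was 0.35, so the value is lower when those lines are left out. Snrpn as listed correlated with neither Ndn (r = -0.27, permutation p = 0.313) nor Peg12 (r = -0.26, permutation p = 0.338), and Snurf gave r of 0.02 with Ndn and 0.26 with Peg12 (permutation p = 0.953 and 0.331).

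Ndn was the gene of the set that moved with the fibroblast markers. Over 16 lines its level correlated with the mean log2(FPKM + 1) of the 12 fibroblast markers at r of 0.79 (permutation p = 0.00036, adjusted over 8 genes p = 0.00288) and rho of 0.81 (permutation p = 0.0002, adjusted p = 0.0016). Without GS32 and GS9, r was 0.83, and it was 0.76 within AN and 0.85 within AI. The other 7 genes had r between -0.31 and 0.36, with adjusted permutation p of at least 0.650. The genes most like Ndn were Sparc (r = 0.94), a matrix glycoprotein, Pmepa1 (r = 0.94) and Myl9 (r = 0.94), a myosin light chain. Of the markers, Twist1 (r = 0.89) and Thy1 (r = 0.84) were closest to Ndn and Lum (r = 0.31) and Dcn (r = 0.26) farthest. The summed fibroblast markers were between 308.5 and 698.6 FPKM in AN F and 389.4 and 817.8 FPKM in AN P. For the iPSCs these sums were between 374.4 and 921.0 FPKM in fully and 150.9 and 709.4 FPKM in partially reprogrammed lines, with none of them at 0 in every line. On average all 12 were higher in AI F compared with AI P and 10 of 12 lower in AN F than in AN P, the directions in which Ndn differed. Peg3, Peg12, Plagl1 and Impact had the same directions without a correlation with the markers past the test. The shared direction is thus not particular to Ndn. None of the 12 passed an adjusted p of 0.05. The part of feeder or other fibroblast cells in the Ndn values was not tested.

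**Figure D3:**
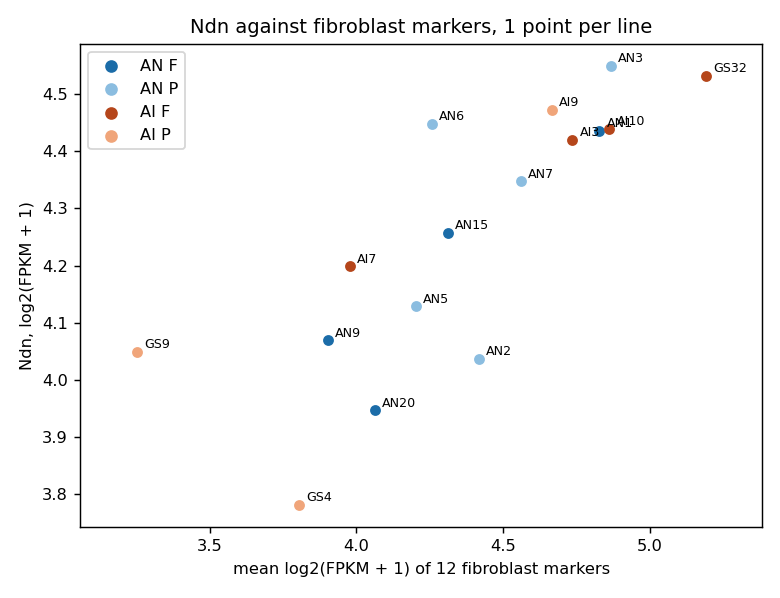
Ndn in log2(FPKM + 1) against the mean log2(FPKM + 1) of 12 fibroblast markers, 1 point per line, coloured by group. The values rise together over the 16 lines (r = 0.79), with GS4 lowest for Ndn and GS9 lowest for the markers.

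Plagl1, on chromosome 10 (chr10:12810497-12851500, mm9, plus strand, 10 exon blocks), encodes a zinc finger transcription factor linked to cell cycle arrest. It was between 4.80 and 6.80 FPKM in AN F and between 4.67 and 6.21 FPKM in AN P, with means of 5.55 ± 0.867 (SD, n = 4) and 5.54 ± 0.617 FPKM (SD, n = 5). The AN means were nearly equal (log2 difference -0.00, SE 0.11, exact permutation p = 1). In AI the lines were spread more widely, from 2.06 FPKM in GS4 to 7.60 FPKM in AI10, and the log2 difference was 0.36 (SE 0.35, exact permutation p = 0.457). Without GS4 it was -0.03. Meis2, a homeobox gene, was the gene most like Plagl1 (r = 0.92).

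Impact, on chromosome 18 with 11 exon blocks, encodes an inhibitor of the kinase GCN2, which slows translation when amino acids are scarce. It did not differ between F and P lines beyond their spread (log2 difference -0.03, SE 0.098 in AN and 0.17, SE 0.13 in AI). It was the gene of the set that differed most clearly between AN and AI, the second question of the design. Impact was at 89.1, 123.9, 90.6 and 101.7 FPKM in AN1, AN9, AN15 and AN20, and at 97.2, 104.2, 106.6, 99.4 and 104.8 FPKM in AN2, AN3, AN5, AN6 and AN7. It was at 79.4, 77.5, 82.9 and 102.7 FPKM in AI3, AI7, AI10 and GS32, and at 72.0, 82.3 and 72.0 FPKM in AI9, GS4 and GS9. All 9 AN lines lay above 6 of the 7 AI lines, and GS32 alone reached the AN range.

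The mean was 102.0 ± 10.3 FPKM in AN (SD, n = 9) and 81.2 ± 10.4 FPKM in AI (SD, n = 7). The log2 difference was 0.34 (SE 0.080, unadjusted p = 0.000733, rank 8 of 13185 genes), but the adjusted p was 0.999 (limma), so the difference did not pass the test across all genes. In AN against AI no gene did (0% called), 464 genes (3.52%) had an unadjusted p under 0.05, and only 3 genes (0.0228%) had groups without overlap. The exact permutation test within F and within P lines gave p = 0.00306 for Impact, the only one of 30 exact tests of the 10 genes under 0.05. Those of AI F against AI P could not fall under 0.05, as their smallest exact permutation p is 0.0571. The exact p-values were not adjusted for the number of tests, so being the only one does not by itself single out Impact. Without GS9 and GS32, whose source entries conflict with their titles, the log2 difference was 0.37, with an exact permutation p of 0.00272. This is the smallest p of that design and carries no weight of its own, because leaving out GS32, the only AI line within the AN range, separates the groups by construction. With only the 4 newly derived AI lines, which also leaves out GS32, the log2 difference was 0.41. The difference was between 0.29 and 0.38 when each line was left out in turn. No covariate for passage or derivation was used in this comparison.

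The remaining genes differed less between AN and AI relative to their spread. The log2 difference was 0.36 (SE 0.22) for Peg10, 0.32 (SE 0.20) for Mest, 0.13 (SE 0.17) for Plagl1, 0.10 (SE 0.21) for Peg12, 0.08 (SE 0.20) for Sgce, -0.01 (SE 0.11) for Ndn and -0.02 (SE 0.17) for Peg3. Their adjusted p was 0.999 in each case (limma). The median over the 8 genes was 0.12, against 0.00 over all tested genes, with 6 of 8 higher in AN. The means of Peg10 were 60.8 ± 23.7 FPKM in AN (SD, n = 9) and 44.8 ± 11.0 FPKM in AI (SD, n = 7), and the lines overlapped widely (exact permutation p = 0.174).

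What most of the 8 genes shared was a wide spread between lines of the same group. The pooled within-group SD of log2(FPKM + 1) was 0.49 for Peg10, 0.45 for Peg12, 0.44 for Mest, 0.43 for Sgce, 0.36 for Plagl1, 0.36 for Peg3, 0.23 for Ndn and 0.15 for Impact. The median of the 8 was 0.39, against 0.20 over the 8589 tested genes whose mean lay between 3.08 and 92.9 FPKM, the range of the 8. Of the 8 genes, 7 were above that median and Impact was below it. Impact, the gene with the clearest difference between AN and AI, was thus also the least variable within groups. Without AN6 the SD of Sgce fell to 0.26 and the median of the 8 was 0.37, and without both AN6 and GS4 the median was 0.29 against 0.18 over the genes in that range, with 7 of 8 above it. Lists of other imprinted genes had medians of 0.26 (8 maternally expressed neighbours), 0.23 (15 other paternally expressed genes) and 0.50 (7 other maternally expressed genes). AN6 was highest for Peg10, Sgce and Peg12, AI10 for Peg3 and Plagl1, AN9 for Impact, AN3 for Ndn and AN7 for Mest, while GS4 was lowest for Ndn, Peg12 and Plagl1. Whether extreme levels gather in some lines was not tested.

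**Figure D4:**
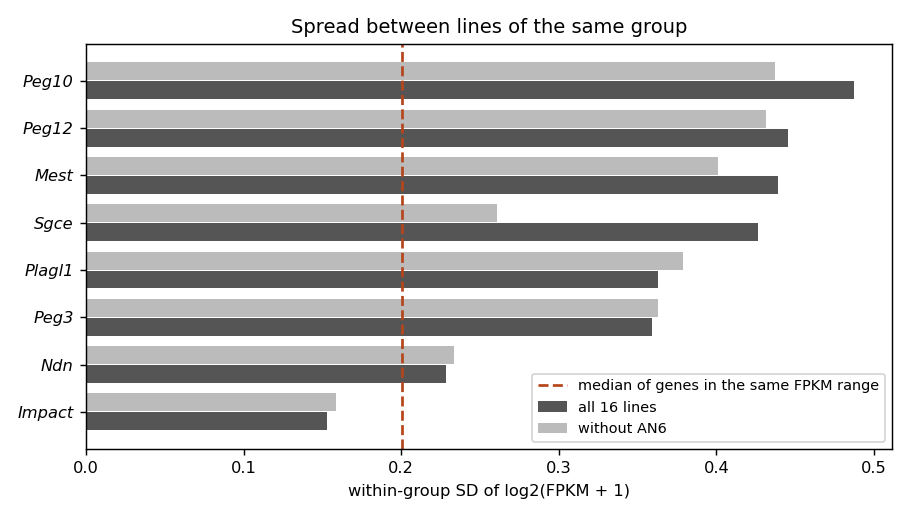
Pooled within-group SD of log2(FPKM + 1) for the 8 tested genes with all 16 lines (dark bars) and without AN6 (light bars), with a dashed line at the median of 0.20 for genes in the same FPKM range. Peg10, Peg12 and Mest are widest, Impact is below the line, and Sgce is the gene whose bar shortens most without AN6.

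Genes whose levels followed each of the 8 most closely over the 16 lines were listed as a description. The closest to Sgce were Sdf2 (r = 0.95), Rras (r = 0.93), a small GTPase gene, and 2900073G15Rik (r = 0.92). Peg12 was followed by Syt13 (r = 0.94), Wnt3 (r = 0.92), which encodes a signalling ligand, and Fignl2 (r = 0.92). Plagl1 was followed by Meis2, St3gal3 (r = 0.90) and Prkd1 (r = 0.88), and Peg3 by Fam20b, Apeg3 and AU040320 (r = 0.85). For Peg10 the closest were Gtpbp8 (r = 0.84), Arl6ip6 (r = 0.79) and Snx16 (r = 0.77). For Mest they were Smpd3 (r = 0.79), Pde2a (r = 0.79) and Xbp1 (r = 0.76), a transcription factor gene of the unfolded protein response. For Impact they were Abhd12 (r = 0.85), Pon3 (r = 0.73) and Tor1b (r = 0.73). These are the highest of 13184 values each and rest on lines that are shared among all genes. The domain partners were lower in these rankings, with Sgce at rank 1555 for Peg10, and Peg12 at rank 1807 for Ndn.

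Maternally expressed neighbours in the domains of the 10 genes were compared in the same fits. Of 11 such genes 8 were tested, and none passed an adjusted p of 0.05 in any comparison (limma). Ube3a, a ubiquitin ligase gene of the Prader-Willi domain with a mean of 14.1 FPKM, was higher in AN F by 0.43 on the log2 scale (SE 0.19, unadjusted p = 0.0445), and its value in AI was -0.02 (SE 0.13). Pon3 of the Peg10 domain, a paraoxonase gene, was higher in AN than AI by 0.26 (SE 0.092, unadjusted p = 0.0130). Pon3 was also the second closest gene to Impact (r = 0.73), on another chromosome.

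Among 17 other paternally expressed genes outside Dlk1-Dio3, 16 were in the table and 15 were tested, again with none past an adjusted p of 0.05. On average 10 of 15 were lower in AN F, and Zrsr1, Snurf and Zdbf2 had an unadjusted p under 0.05 in AN. The log2 difference was -0.43 for Zrsr1 (SE 0.090, limma, unadjusted p = 0.000806) and 0.42 for Zdbf2 (SE 0.17, unadjusted p = 0.0328). Zdbf2 was at 23.6 FPKM in AN20 and at 11.9 to 17.3 FPKM in the other AN F lines, against 10.4 to 12.5 FPKM in AN P. Zrsr1, a splicing factor gene with a mean of 7.15 FPKM, was also lower in AI F (-0.48, SE 0.15, unadjusted p = 0.0141). Igf2, a fetal growth factor gene at a mean of 100.6 FPKM, was higher in AI F by 1.18 (SE 0.49, unadjusted p = 0.0441) and was -0.38 (SE 0.24) in AN. The low AI P values of Igf2 were those of GS4 (31.6 FPKM) and GS9 (42.4 FPKM). AI9, at 121.2 FPKM, lay within the AI F range (76.7 to 193.8 FPKM). Nnat at 0.82 (SE 0.35, unadjusted p = 0.0342) and Mcts2 at 0.40 (SE 0.17, unadjusted p = 0.0335) were higher in AN than in AI on average. Nnat was at 194.7 FPKM in AN6 and at most 70.8 FPKM in any other line. Mcts2 was at 39.2 FPKM in GS4 and 44.3 FPKM in GS9, above every AN line (25.7 to 37.8 FPKM). In the other AI lines it was at 15.1 to 19.9 FPKM, below every AN line. Highly expressed genes of this list without such a difference included Slc38a4, an amino acid transporter gene at 45.8 FPKM, whose log2 differences were 0.15 (SE 0.14) in AN and -0.03 (SE 0.11) in AI.

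Of 9 maternally expressed genes outside these domains, 7 were tested and none passed an adjusted p of 0.05. Their median log2 difference in AI was 0.85, with 7 of 7 higher in AI F on average. The 12 fibroblast markers moved the same way, with a median of 0.90 and the lowest sums of all lines in GS4 (261.0 FPKM) and GS9 (150.9 FPKM), and their part in this list was not tested. Grb10, a growth factor receptor adaptor gene, was higher in F lines by 0.95 (SE 0.33, unadjusted p = 0.0169) in AN and 1.56 (SE 0.64, unadjusted p = 0.0421) in AI. In AN it was at 36.8 to 46.1 FPKM in F and 8.89 to 33.0 FPKM in P lines. In AI the low values were those of GS4 (8.28 FPKM) and GS9 (6.60 FPKM), while AI9, the third AI P line, was at 53.0 FPKM, above 3 of 4 AI F lines (36.9 to 54.9 FPKM). Without GS4 the AI difference was 1.19 and without GS9 it was 1.04, both with an unadjusted p above 0.05 (limma). When each AI F line was left out in turn, it was 1.47 to 1.66, and the unadjusted p was also above 0.05 (limma). Without AI9 it was 2.46 (SE 0.18, unadjusted p = 5.9e-06, adjusted p = 0.0532, limma). H19 was lower in AN F by 0.68 on the log2 scale (-0.68, SE 0.25, unadjusted p = 0.0235), and Osbpl5 was higher in AI F by 0.85 (SE 0.35, unadjusted p = 0.0463). The low AI P values of Osbpl5 were again those of GS4 (1.80 FPKM) and GS9 (1.29 FPKM), while AI9, at 4.94 FPKM, lay within the AI F range (3.15 to 6.23 FPKM). The log2 differences in AN and AI were 0.17 (SE 0.28) and 0.21 (SE 0.48) for Phlda2 (mean 30.9 FPKM), 0.19 (SE 0.38) and 0.90 (SE 0.45) for Cdkn1c (21.5 FPKM), and 0.07 (SE 0.16) and 0.60 (SE 0.28) for Igf2r (19.6 FPKM). Among the marker lists no gene passed an adjusted p of 0.05 either (limma). Of these, 7 pluripotent, 12 fibroblast, 5 extraembryonic endoderm, 3 trophoblast and 4 neural markers were tested, and only fibroblast markers had an unadjusted p under 0.05 in AN or AI (Thy1, Twist1 and Pdgfra in AI). For the interaction such a p was found for 8 of 12 fibroblast markers, 3 of 5 extraembryonic endoderm markers (Gata4, Gata6 and Dab2) and 1 of 4 neural markers (Nes), against 16.6% of all genes. It was also found for Igf2 and Airn among the other paternally expressed genes and for H19 and Osbpl5 among the maternally expressed ones, all with a larger F minus P difference in AI.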

How the data were processed

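The 16 libraries were sequenced as single-end reads. The authors mapped them to mm9 with TopHat 2.1.0 and deposited 1 FPKM value per gene and line, made with Cufflinks 2.2.1. HTSeq is also named in the submitters' processing notes without a role. The annotation source, strand setting and library normalization are not given in the sources used here. No counts were used, so counting error is not known, and the exact near-0 values come from the estimation of Cufflinks.

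Tests were run on log2(FPKM + 1) of the 13185 genes (of 22552) with a mean of at least 0.5 FPKM, with limma 3.58.1 (R 4.3.3, mean-variance trend, Benjamini-Hochberg adjustment, threshold 0.05), which was tested on simulated data. AN F and AN P were fitted on 9 lines, AI F and AI P on 7, and the interaction and AN against AI on 16. Cuffdiff, used in the study, needs reads and was not run. Single genes were compared by two-sided exact permutation tests (p is 2 times the smaller tail; 126 splits in AN, 35 in AI, 3920 within F and P for AN against AI), with smallest p-values of 0.0159, 0.0571 and 0.00051. Correlations used 100000 permutations in Python 3.11.15 (numpy 2.4.6, scipy 1.17.1). A line is the replicate, so the tests of groups set a difference against the spread between clonal lines. With 1 library per line, variation between libraries of the same line cannot be told apart from that spread.

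The 10 genes, the lists and the tests were chosen with earlier results of these data known. The lists were maternally expressed neighbours, other paternally and maternally expressed genes, and pluripotent, fibroblast, extraembryonic endoderm, trophoblast and neural markers. The text names all 10 genes, the 3 genes most alike in level to each tested gene (r over 16 lines), and genes of the imprinted gene lists with an unadjusted p under 0.05 or a mean of 10 FPKM or more. Gene positions are from GENCODE on mm9, where 95.7% of table names were found. Promoter windows are RefSeq's on GRCm38.p6 and were at hand for 7 of the 10 genes (not Peg10, Sgce or Impact). Alternatives were a pseudocount of 0.1, no filter, a minimum mean of 5 FPKM, quantile normalization, median-ratio scaling, no trend, a fit of all lines, passage or derivation as a term, GS9 and GS32 left out, newly derived AI lines only, and each line left out in turn. The correlations with Apeg3, Snurf and fibroblast markers, the spread by level, the exact tests without GS lines and a block on shared line numbers were chosen after seeing the data.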

Additional observations from a re-analysis of the deposited data

Results flagged for a closer look

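In 3 cases a value lay far from the rest of its group, by the ratio of its gap to the group's range, and all of them were AN6 in AN P. Over the 54 groups of 4 or 5 lines examined, chance alone would give about 2.7 (1 in 20), so the number alone is not more than chance gives. The groups share lines and related genes, so 2.7 is a rough guide only. A total count also cannot say whether such values gather in 1 line. Sgce was at 26.7 FPKM in AN6 and at 8.24 to 12.2 FPKM in the other AN P lines. Snrpn was at 5.2e-06 FPKM in AN6 and at 0.353 to 0.463 FPKM in the others, beside a Snurf level of 239.1 FPKM in AN6. The mean log2(FPKM + 1) of 7 pluripotent markers was 6.14 in AN6 and 6.78 to 6.92 in the others. Whether these values are related was not tested.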

How the results depend on the processing

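None of the 8 tested genes passed the threshold in any comparison or alternative. Of 252 values of single genes under the other planned settings, 244 kept their direction and 8 did not. For Plagl1 in AN F against AN P the log2 difference became 0.0011 with quantile normalization and 0.011 with median-ratio scaling. For Mest in AI F against AI P it became 0.037 with quantile normalization and 0.19 without GS9 and GS32, where Sgce in AI became 0.044 and the Mest interaction 0.059. With newly derived AI lines only, AN against AI became -0.24 for Peg12 and -0.13 for Plagl1. Over all genes, 6 were called in AI F against AI P and 1 in AN against AI without GS9 and GS32, and 9 in AN against AI with newly derived AI lines only. The cause was not tested.

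Leaving out each line changed the direction of 39 of 384 values. The number of genes called then ranged from 0 to 1 in AN F against AN P, 0 to 5 in AI F against AI P, 0 to 651 for the interaction (651 without AI9) and 0 to 1 in AN against AI. In AN F against AN P the log2 differences ranged from -0.36 to 0.10 for Peg10, -0.037 to 0.29 for Mest, -0.21 to 0.047 for Peg3, -0.089 to 0.053 for Plagl1 and -0.13 to 0.029 for Impact. In AI F against AI P they ranged from -0.20 to 0.058 for Sgce, -0.31 to 0.18 for Mest, -0.13 to 0.59 for Peg12 and -0.029 to 0.63 for Plagl1. Interaction values ranged from -0.44 to 0.057 for Mest and -0.027 to 0.63 for Plagl1. In AN against AI they ranged from -0.056 to 0.14 for Sgce, -0.10 to 0.10 for Peg3, -0.089 to 0.084 for Ndn, -0.10 to 0.26 for Peg12 and -0.062 to 0.27 for Plagl1. The sign of these small differences thus depends on single lines. The results not listed here kept theirs, among them Impact, Peg10 and Mest in AN against AI, Sgce, Ndn and Peg12 in AN, and Peg10 and Peg3 in AI. None of them passed the threshold in any of these fits. AN and AI lines share 3 line numbers (AN3 and AI3, AN7 and AI7, AN9 and AI9), which name clones derived separately. Their deviations from the group means correlated at 0.032, 0.035 and -0.22, so the numbers do not pair the lines. With these numbers as a replicate block no gene was called in AN against AI (0), as without it, and the log2 difference became 0.0016 for Peg3 and 0.00091 for Ndn. Lines of F and P within AN or within AI share no number.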
